A study of Mus musculus with 3 samples.

Results

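The 10 genes described here are the receptors Notch1, Notch2, Notch3 and Notch4, the nuclear mediators Rbpj and Maml1, the Deltex genes Dtx1 and Dtx4, and the targets Hes1 and Nrarp. They were listed by name, with earlier results of these data known, and all 10 were found among the 27179 genes of the count tables by Entrez number. RNA was sequenced from mouse pro-B cells, an early B-lineage stage at which the immunoglobulin heavy chain gene is rearranged. The 2 Pax5-/- samples came from male C57BL/6 mice that lack Pax5, the transcription factor that holds cells in the B lineage, and were prepared independently. The single wild-type sample came from a female C57BL/6 mouse. All cells were B220+ bone marrow cells grown on OP9, a stromal feeder line. For the Pax5-/- samples the labels also give depletion of IgM-bearing cells at day 7, a step not stated for the wild type. Ages and the structure of the Pax5 allele are not stated. Sex and the stated depletion step follow genotype, so genotype, sex and the depletion step cannot be told apart in these samples.

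Notch receptors are cleaved when a ligand on a neighbouring cell binds them, and the freed intracellular part enters the nucleus. There it joins the DNA-binding protein RBPJ and a Mastermind co-activator such as MAML1 and switches on genes including Hes1, Nrarp and, in lymphocytes, Dtx1. Notch1 signalling directs early progenitors to the T-cell fate, Notch2 is needed for marginal zone B cells, and Pax5 is known to repress Notch1 in B-lineage cells.

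Library totals ran from 6487846 to 6697879 counts. Pax5 itself kept 417 and 551 counts in Pax5-/- cells, against 1601 in wild-type cells, and counts outside a deleted part check nothing. Of 12 pro-B markers, all had counts in every library. The spread behind every test came from the 2 Pax5-/- samples alone, with the lone wild type assumed to vary like them. Nothing in the labels says whether the Pax5-/- samples came from separate animals, so the p-values measure only the spread between these samples. In bulk RNA, fewer expressing cells and less RNA per cell cannot be told apart.

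Notch1 and Notch2 rose in Pax5-/- cells, whereas the downstream genes went in different directions. Notch1 stood 8.96-fold and Notch2 3.45-fold above the wild type. The Deltex genes changed in opposite directions, Dtx4 being 35.6-fold higher and Dtx1 31.1-fold lower in Pax5-/-. Hes1 and Nrarp were not called, and neither were Rbpj and Maml1. Of the 10 genes, 8 had enough counts to be tested, and 3 of these rose, 1 fell and 4 were not called. The 1 that fell, Dtx1, passed the filter on low counts through the wild type alone, so it had to differ once tested. Among all 11783 genes tested, 9.53% were called higher, 8.55% lower and 18.1% in either direction at an adjusted p under 0.05 (quasi-likelihood test of edgeR, adjusted after Benjamini and Hochberg). In both Pax5-/- samples taken singly, Notch1, Notch2 and Dtx4 were higher by a fold of 2 or more and Dtx1 was lower by as much, as were 11.5% and 8.61% of all genes tested. The median log2 fold change was 0.61 over the 8 tested genes and 0.01 over all genes tested.

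Notch1, the receptor of T-lineage specification, lies on chromosome 2 (26457902 to 26503822, minus strand, mm10). It reached 541 CPM in Pax5-/- sample 1 and 650 CPM in Pax5-/- sample 2, against 66.6 CPM in wild-type cells. CPM are read counts scaled to a common library total, here after TMM normalisation. The exact 95% Poisson interval of the wild-type value was 60.4 to 73.2 CPM, so both Pax5-/- values lay far outside its counting error. The fitted log2 fold change of Pax5-/- over wild type was 3.16 (SE 0.18, adjusted p = 0.00413). The 250 bases before its RefSeq start are shown because Notch1 had the highest level of the 10 genes per length in both Pax5-/- libraries. They cover chr2:26503823-26504072 of GRCm38.p6 (the same assembly as mm10) on the minus strand, and capitals mark a match to the N box, letters that Hes repressors bind.
Notch1: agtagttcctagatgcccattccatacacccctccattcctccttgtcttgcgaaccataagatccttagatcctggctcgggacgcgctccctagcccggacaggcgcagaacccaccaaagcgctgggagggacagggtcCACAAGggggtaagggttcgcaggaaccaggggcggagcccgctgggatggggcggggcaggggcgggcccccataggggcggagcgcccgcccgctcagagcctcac

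Notch2, the receptor of marginal zone B cells, lies on chromosome 3 (98013538 to 98150367, plus strand). It had 85.8 and 98.1 CPM in Pax5-/- cells, against 26.7 CPM in wild-type cells. Both Pax5-/- samples were high and close together, and Notch2 rose by 1.79 ± 0.18 (SE) on the log2 scale, with an adjusted p of 0.0103. The call did not survive an assumed biological coefficient of variation of 0.4, which gave an adjusted p of 0.169.

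Notch3 and Notch4, receptors best known from blood vessels, were barely counted. Notch3 (chromosome 17, 32120820 to 32166896, minus strand) had 7 and 9 counts in Pax5-/- cells, against 1 in wild-type cells, a ratio of 7.72 with an exact 95% counting interval of 1.20 to 324. Notch4 (chromosome 17, 34564286 to 34588543, plus strand) had 3 and 7 counts in Pax5-/- cells, against 2 in wild-type cells, a ratio of 2.41 (0.514 to 22.6). Neither passed the filter on low counts, and for Notch4 a difference was not detectable at this depth. Per kilobase of gene length, Notch1 made up 87.2% and 87.6% of the summed level of the 4 receptors in Pax5-/- and 72.9% in the wild type. Notch2 supplied nearly all of the rest, with 12.5% and 11.9% in Pax5-/- cells, against 26.4% in wild-type cells. These shares are descriptions, with no test.

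**Figure D1:**
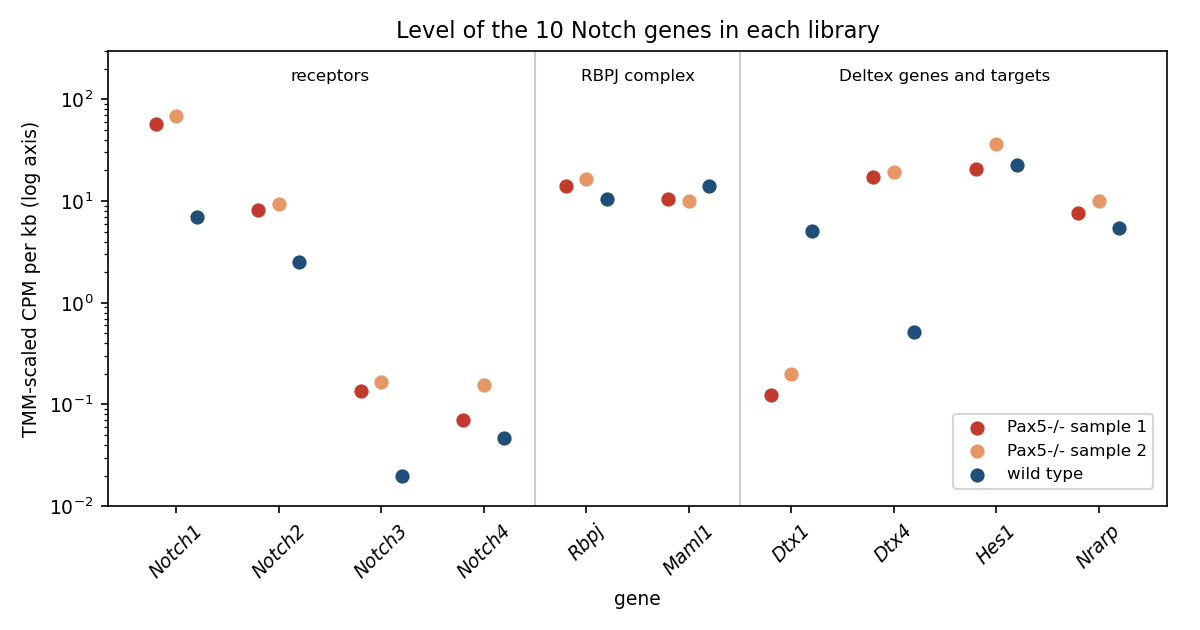
Level of each gene as TMM-scaled CPM per kilobase of gene length on a log axis, with 1 point per library in the order Pax5-/- sample 1, Pax5-/- sample 2 and wild type. Notch1 stood at 57.0 and 68.5 CPM per kb in Pax5-/- and 7.02 in the wild type, while Dtx1 and Dtx4 lie on opposite sides of their wild-type points.

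Neither nuclear mediator was called. Rbpj, the DNA-binding partner of cleaved Notch (chromosome 5, 53555779 to 53657445, plus strand), had 80.0 and 93.6 CPM in Pax5-/- cells, against 59.9 CPM in wild-type cells. Its log2 fold change was 0.53 (SE 0.18, adjusted p = 0.116) and it was not called. Maml1, a co-activator that binds Notch and RBPJ together (chromosome 11, 50255634 to 50293131, minus strand), had 57.6 and 55.8 CPM in Pax5-/- cells, against 78.8 CPM in wild-type cells, a log2 fold change of -0.47 ± 0.14 (SE), with an adjusted p of 0.0961. The groups did not overlap for either gene, which says little in a design of 2 samples against 1. Of the 8 genes tested, 5 had both Pax5-/- samples above the wild type and 2 had both below it, and the shares of all genes tested were 42.3% above and 42.9% below, 85.2% in all. Rbpj has 3 pseudogene copies in RefSeq that have no row of their own in the count tables, so its counts are uncertain where reads fit several copies.

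Dtx1 and Dtx4 encode Deltex proteins, ubiquitin ligases that act on the Notch pathway. Dtx1 (chromosome 5, 120680203 to 120711867, minus strand) had 3 and 5 counts in Pax5-/- cells, against 120 in wild-type cells, or 0.463 and 0.734 CPM against 18.7 CPM. It was almost absent from both Pax5-/- libraries and passed the filter on low counts through the wild type alone, so a tested Dtx1 had to differ. It fell by 4.92 ± 0.39 (SE) on the log2 scale, with an adjusted p of 0.00647. Dtx4 (chromosome 19, 12466329 to 12502179, minus strand) had 644 and 759 counts in Pax5-/- cells, against 19 in wild-type cells, or 99.4 and 112 CPM against 2.96 CPM. It was low in the wild type alone and rose by 5.14 ± 0.23 (SE) on the log2 scale, with an adjusted p of 0.00297. Summed per kilobase, the pair stood at 17.3 and 19.5 CPM per kb in Pax5-/- and 5.55 in the wild type. Dtx4 supplied 99.3% and 99.0% of that sum in Pax5-/- cells, against 9.25% in wild-type cells.

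Markers listed for mature B cells, which are known to express Dtx1, also had a higher sum in the wild-type sample. The 6 markers Ms4a1, Cr2, Fcer2a, Ighd, Igkc and Cd22 summed to 50.9 and 24.7 CPM in Pax5-/- cells, against 856 CPM in wild-type cells. Ms4a1 and Fcer2a were at 0 in both Pax5-/- libraries, and none of the 6 was at 0 in the wild type. Igkc (612.5 CPM) and Cd22 (145.7 CPM) were the largest parts of the wild-type sum, whereas Cr2 had 10 counts there and Fcer2a 2. Several of the 6 markers are also Pax5-dependent. Whether the wild-type sample held mature B cells was not tested, nor was the part of these markers in the fall of Dtx1. Markers of other cell types also differed between the libraries, and their part in these results was not tested either. The 8 neutrophil and monocyte markers summed to 19.0 and 27.2 CPM in Pax5-/- cells, against 77.4 CPM in wild-type cells. S100a8, S100a9, Ngp and Elane were at 0 in both Pax5-/- libraries, although Elane had only 2 counts in the wild type. Ltf and Csf1r were lower in both Pax5-/- samples and not called, and Mpo lay on either side of the wild type. Lyz2 went the other way, with 14.2 and 18.8 CPM in Pax5-/- cells, against 4.37 CPM in wild-type cells. It was called higher, a call lost with limma-voom. The 6 plasmacytoid dendritic markers summed to 1474 and 412 CPM in Pax5-/- cells, against 570 CPM in wild-type cells. Of these, 2 rose, Siglech 7.96-fold and Ccr9 8.64-fold, beside 9.53% of all genes tested called higher, and limma-voom did not call Siglech. Irf7, Bst2 and Tcf4 had the 2 Pax5-/- samples on either side of the wild type, and neither they nor Cox6a2 were called. The 250 bases before the RefSeq start of Dtx1 (chr5:120711670-120711919, minus strand, GRCm38.p6) are shown because it was the gene of the 10 that fell, with capitals marking an N box on the other strand. The RefSeq span of Dtx1 given above reaches farther upstream than this start site, so most of the window lies inside the span.
Dtx1: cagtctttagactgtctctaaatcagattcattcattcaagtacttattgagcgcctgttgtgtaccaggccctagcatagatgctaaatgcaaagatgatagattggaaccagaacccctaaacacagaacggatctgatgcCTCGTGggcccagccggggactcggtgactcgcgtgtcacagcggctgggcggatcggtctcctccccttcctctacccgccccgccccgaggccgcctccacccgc

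Hes1 and Nrarp, listed among the 10 genes as Notch targets, were not called. Dtx1, which Notch can also switch on in lymphocytes, was called, but it had to differ once tested, so its call is no contrast to theirs. Hes1, a basic helix-loop-helix repressor (chromosome 16, 30065357 to 30067796, plus strand), had 29.9 and 53.3 CPM in Pax5-/- cells, against 32.8 CPM in wild-type cells. The 2 Pax5-/- samples lay on either side of the wild type, so the groups overlapped. The log2 fold change was 0.35 (SE 0.39, adjusted p = 0.565), and it was -0.13 in sample 1 and 0.70 in sample 2 taken alone. Nrarp, an ankyrin-repeat protein that limits Notch signalling (chromosome 2, 25180758 to 25183339, plus strand), had 19.8 and 25.7 CPM in Pax5-/- cells, against 14.0 CPM in wild-type cells. Both Pax5-/- samples lay above the wild type, at a log2 fold change of 0.70 ± 0.26 (SE), with an adjusted p of 0.144. In the GENCODE annotation an antisense gene covers 79.4% of the exon bases of Nrarp, and without a stated strand setting reads of the 2 genes cannot be told apart.

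**Figure D2:**
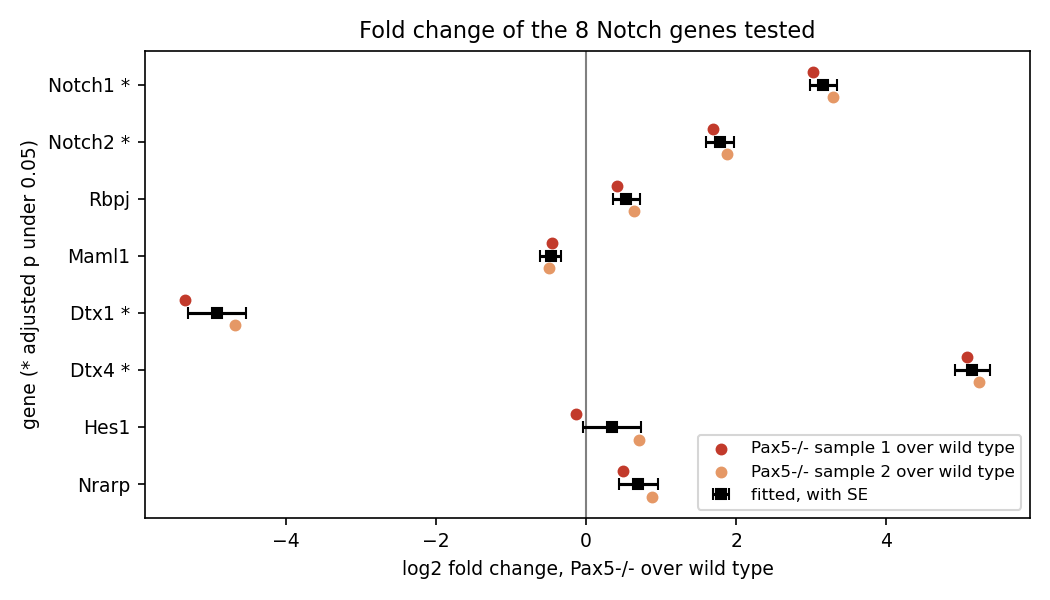
Log2 fold change of Pax5-/- over wild type for the 8 genes tested, as the fitted value with its SE (squares and bars) and for each Pax5-/- sample alone (points). Stars mark adjusted p under 0.05, reached by Notch1, Notch2 and Dtx4 on the right and Dtx1 on the left, and the 2 points of Hes1 lie on either side of 0.

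The start regions were searched on both strands for the RBPJ site GTGGGAA, for the N box CACNAG and for the E box CACGTG, which Hes and Hey proteins can bind. RefSeq gave 9 start sites for 8 of the genes. For Hes1 and Dtx4 no start region was available, so neither was searched. The search covered the 250 bases before each start site, which for some genes lie partly or wholly inside the gene's RefSeq span. None of the 9 held the RBPJ letters, which 5.42% of 32851 such windows in the genome hold. An N box lay in the windows of 5 genes (36.7% of all windows hold it). The E box, found in 6.02% of all windows, lay in that of Nrarp, 108 to 103 bases before the start. A match is a description and not a site of binding. The window of Nrarp (chr2:25180508-25180757, plus strand, GRCm38.p6) is set beside that of Hes5, a Hes repressor outside the 10 genes whose window (chr4:154960673-154960922, plus strand) holds 2 matches to the RBPJ letters. Capitals mark N boxes and the E box in Nrarp and RBPJ letters in Hes5.
Nrarp: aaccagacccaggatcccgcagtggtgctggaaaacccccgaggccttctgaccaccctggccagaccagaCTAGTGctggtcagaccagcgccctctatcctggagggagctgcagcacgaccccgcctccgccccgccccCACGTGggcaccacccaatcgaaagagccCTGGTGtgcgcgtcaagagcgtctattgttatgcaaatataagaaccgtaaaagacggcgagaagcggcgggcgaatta
Hes5: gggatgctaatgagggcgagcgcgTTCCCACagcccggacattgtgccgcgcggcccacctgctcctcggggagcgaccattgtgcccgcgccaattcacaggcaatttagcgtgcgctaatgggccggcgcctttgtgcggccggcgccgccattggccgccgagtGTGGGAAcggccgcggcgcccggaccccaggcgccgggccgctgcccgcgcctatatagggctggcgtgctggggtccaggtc

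Hes5 had 12 and 15 counts in Pax5-/- cells, against 33 in wild-type cells, a log2 fold change of -1.33 ± 0.42 (SE), with an adjusted p of 0.107. It was lower in both Pax5-/- samples and was not called by edgeR's quasi-likelihood test, although the likelihood ratio test called it lower.

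Set against each other within a library, receptors outweighed the downstream genes in Pax5-/-, and the downstream genes outweighed receptors in the wild type. The 4 receptors summed to 65.3 and 78.2 CPM per kb in Pax5-/- cells, against 9.63 in wild-type cells. The 4 genes Dtx1, Dtx4, Hes1 and Nrarp summed to 45.6 and 66.2 CPM per kb in Pax5-/- and 33.6 in the wild type. Downstream genes stood to receptors in a ratio of 0.698 and 0.847 in the Pax5-/- libraries and 3.49 in the wild type. This ratio does not depend on library scaling, and 2 samples against 1 cannot give an exact permutation p below 0.333, so it is given with no test. Without Dtx4 it was 0.435 and 0.600 in Pax5-/- cells, against 3.43 in wild-type cells.

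The ratios of single genes to Notch1 per kilobase differed in the same direction for 3 of the 4. Hes1 over Notch1 was 0.362 and 0.536 in Pax5-/- and 3.22 in the wild type. Nrarp over Notch1 was 0.134 and 0.145 in Pax5-/- and 0.775 in the wild type. Dtx1 over Notch1 was 0.00219 and 0.00288 in Pax5-/- and 0.718 in the wild type. Dtx4 over Notch1 went the other way, at 0.302 and 0.282 in Pax5-/- and 0.0732 in the wild type. Neither Hes1 nor Nrarp was itself called, and all 4 ratios share Notch1 as their denominator.

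**Figure D3:**
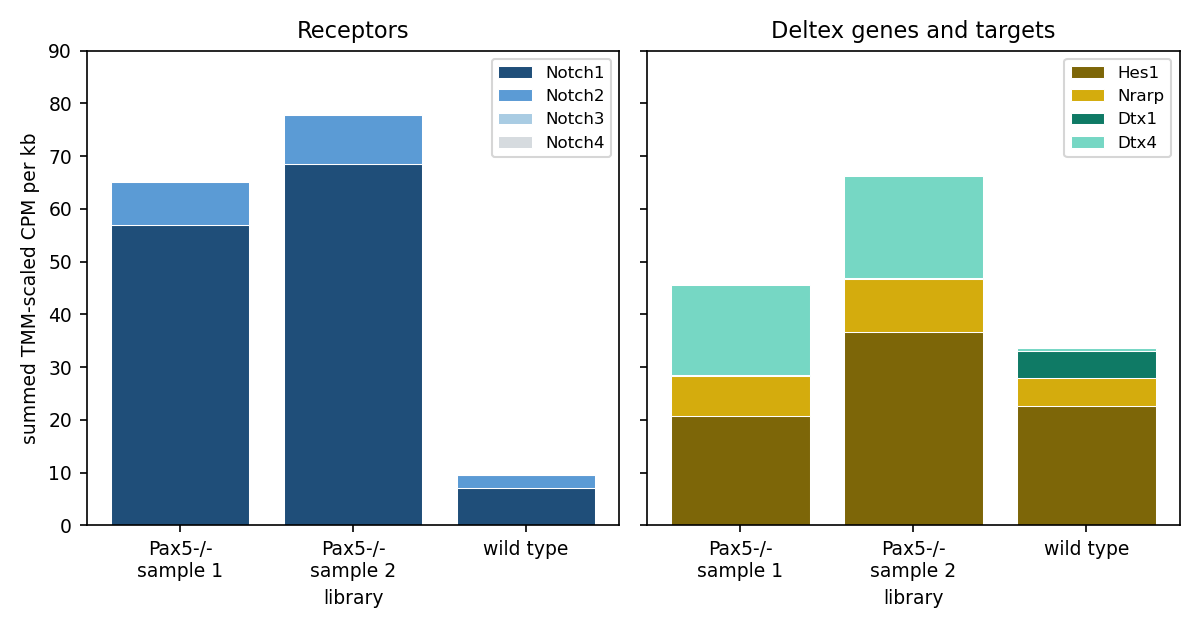
Summed level in TMM-scaled CPM per kilobase of the 4 receptors (left panel) and of Hes1, Nrarp, Dtx1 and Dtx4 (right panel), stacked by gene for each library from 0. The receptor sum was 65.3 and 78.2 CPM per kb in Pax5-/- and 9.63 in the wild type, and in the right panel Dtx4 is visible in Pax5-/- where Dtx1 is in the wild type.

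The order of the 10 genes per kilobase also differed. In Pax5-/- Notch1 came first at a mean of 62.8 CPM per kb, followed by Hes1 (28.7), Dtx4 (18.3), Rbpj (15.2), Maml1 (10.2), Nrarp (8.80), Notch2 (8.75), Dtx1 (0.161), Notch3 (0.151) and Notch4 (0.113). Nrarp and Notch2, Dtx1 and Notch3, and Notch3 and Notch4 did not differ beyond the range of the 2 samples. In the wild type Hes1 came first at 22.6 CPM per kb, followed by Maml1 (14.2), Rbpj (10.5), Notch1 (7.02), Nrarp (5.44), Dtx1 (5.04), Notch2 (2.54), Dtx4 (0.514), Notch4 (0.0472) and Notch3 (0.0196). There the exact 95% Poisson intervals of Notch1 and Nrarp, of Nrarp and Dtx1, and of Notch4 and Notch3 overlapped.

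The rest of the pathway was read from 8 lists of 81 other genes, of which 66 were tested, 11 rose, 6 fell and 49 were not called, a called share of 25.8% beside 18.1% of all genes tested, of which 9.53% were higher and 8.55% lower. Of 7 ligands, 3 were tested and 2 rose. Jag2, a Serrate-type ligand, had 11.1 and 17.5 CPM in Pax5-/- cells, against 2.03 CPM in wild-type cells (log2 fold change 2.81 ± 0.48 SE, with an adjusted p of 0.0307), and limma-voom did not call it. Dlk1, a ligand-like protein known to dampen Notch, had 22 and 40 counts in Pax5-/- cells, against 0 in wild-type cells which makes it at least 9.97-fold higher in Pax5-/-, with 3 counts as the floor of the wild type (adjusted p = 0.0327). It passed the filter through Pax5-/- cells alone. Dll4, the ligand of the thymus, had 0 and 1 counts in Pax5-/- cells, against 15 in wild-type cells and was not called (adjusted p = 0.0568), although limma-voom and the likelihood ratio test called it lower. Dll4 passed the filter through the wild type alone, so a tested Dll4 had to differ and those calls add no support. The 11 stromal markers summed to 11.0 and 10.7 CPM in Pax5-/- cells, against 30.7 CPM in wild-type cells, and the part of OP9 transcripts in the ligand counts was not tested.

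Genes that make and cleave the receptors were not called, beside 18.1% of all genes tested called in either direction. In lists this short the absence of calls says little, and neither list was tested against that share. None of 9 tested cleavage genes passed, and the 2 with the smallest p were Adam10, the protease that sheds the outer part, at a log2 fold change of -0.37 ± 0.12 (SE), with an adjusted p of 0.112, and Furin, which cuts the precursor, at 0.82 ± 0.24 (SE), with an adjusted p of 0.0904. Only these 2 had an unadjusted p under 0.05 in edgeR's quasi-likelihood test, and DESeq2, limma-voom and the likelihood ratio test called 0 of the 9. None of 5 tested glycosylation genes passed in any of the 4 tests, 1 of them had an unadjusted p under 0.05, and the 2 with the smallest p were Poglut1, which adds glucose, at a log2 fold change of 0.52 ± 0.15 (SE), with an adjusted p of 0.0855, and Lfng, a Fringe enzyme, at -0.36 ± 0.18 (SE), with an adjusted p of 0.236.

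Among nuclear partners, 1 of 7 tested co-activators and 1 of 13 tested co-repressors rose and none fell. Of all genes tested, 9.53% were called higher and 8.55% lower, and no list was tested against these shares. The counts lower at an unadjusted p under 0.05 were 0 and 1, and DESeq2, limma-voom and the likelihood ratio test called 0 of either list lower. Maml3, a sister of Maml1, had 116 and 156 CPM in Pax5-/- cells, against 42.7 CPM in wild-type cells (log2 fold change 1.67 ± 0.25 SE, with an adjusted p of 0.0227). Ctbp2, a co-repressor, had 37.8 and 34.7 CPM in Pax5-/- cells, against 2.34 CPM in wild-type cells (log2 fold change 3.94 ± 0.25 SE, with an adjusted p of 0.00449). Of 13 tested ubiquitin ligases and endocytosis genes, 3 rose and 10 were not called. Neurl1b, a Neuralized ligase that acts on ligands, had a log2 fold change of 1.77 (SE 0.27), Nedd4 of 1.14 (SE 0.13) and Mib2, a Mind bomb ligase, of 1.12 (SE 0.23). The call of Mib2 was lost with library size alone, DESeq2 and limma-voom.

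Other called targets lay in both directions, as did calls among all genes tested, 9.53% higher and 8.55% lower. Of 8 Hes and Hey repressors, 3 were tested and 1 fell. This was Heyl, with 0 and 1 counts in Pax5-/- cells, against 191 in wild-type cells, so that wild-type cells held 396 times as much, with an exact 95% counting interval of 70.2 to 15720 (adjusted p = 0.00477). Heyl passed the filter on low counts through the wild type alone, so a tested Heyl had to differ. Of 16 genes that Notch can switch on in lymphoid cells, 13 were tested, 4 rose and 5 fell. Asb2, a subunit of a ubiquitin ligase, had no count in either Pax5-/- sample, against 52 in wild-type cells, which makes it at least 35.9-fold lower in Pax5-/-, with 3 counts over the Pax5-/- group as the floor (adjusted p = 0.0220). Asb2, too, passed the filter through the wild type alone.

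Il2ra, the interleukin-2 receptor alpha chain of early T cells, had 312 and 392 CPM in Pax5-/- cells, against 101 CPM in wild-type cells (log2 fold change 1.80 ± 0.20 SE, with an adjusted p of 0.0121). Lef1, a high-mobility-group factor of early lymphocytes, had 36.1 and 60.8 CPM in Pax5-/- cells, against 261 CPM in wild-type cells (log2 fold change -2.43 ± 0.33 SE, with an adjusted p of 0.0186). Igf1r, a growth factor receptor, fell by 2.20 ± 0.43 (SE) on the log2 scale, with an adjusted p of 0.0394, a call lost with library size alone. The other called genes of this list were Tcf7, Il7r and Runx3, which rose, and Ccnd3 and Nfkb2, which fell. Ptcra, the pre-T-cell receptor alpha chain, had 0 counts in every library, and Bcl11b had 0 and 0 counts in Pax5-/- cells, against 1 in wild-type cells.

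**Figure D4:**
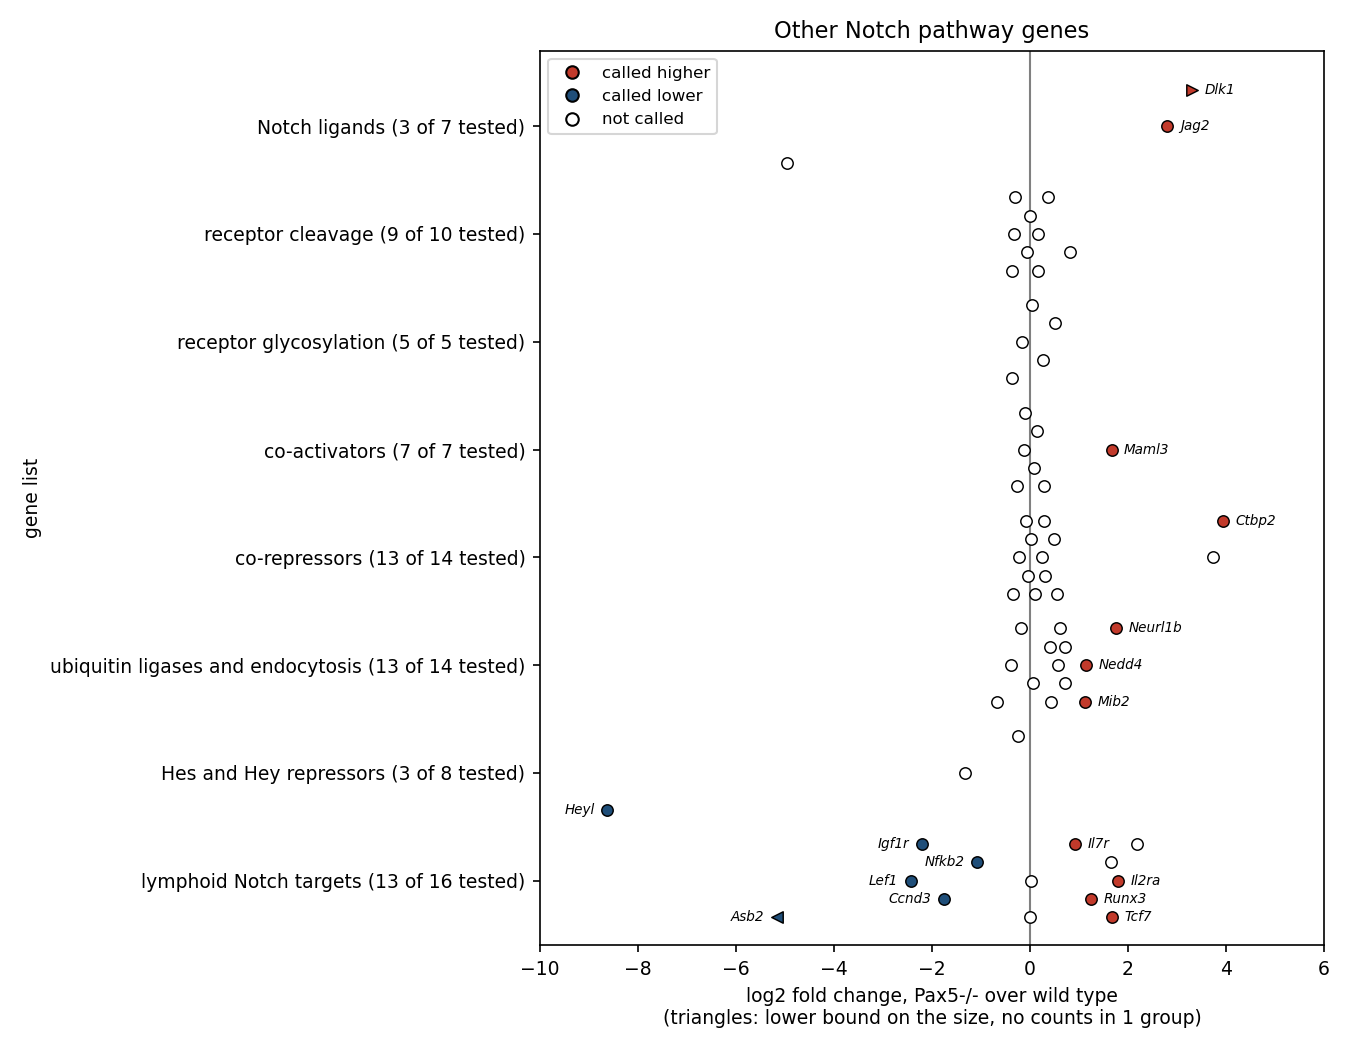
Log2 fold change of Pax5-/- over wild type for the 66 other pathway genes tested, by list. Filled points passed adjusted p under 0.05, triangles are bounds for genes with no counts in 1 group, and genes with 1 to 3 counts in a group are drawn at their ratio of pooled CPM. Called genes lie on both sides of 0 among the targets, and the cleavage and glycosylation lists hold open points alone.

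T-cell markers were checked because Notch1 is a T-lineage receptor. The 10 markers summed to 288 and 264 CPM in Pax5-/- cells, against 59.3 CPM in wild-type cells. Lck and Thy1 carried this sum, with 1498 and 1196 counts of Lck in Pax5-/- and 247 in the wild type. Only these 2 of the 10 had enough counts to be tested. Both rose, beside 9.53% of all genes tested called higher, and Thy1 lost its call with limma-voom. Cd3g, Bcl11b and Ptcra were at 0 in both Pax5-/- libraries, and Cd3d, Cd3e, Cd4, Cd8a and Cd8b1 had 0 to 3 counts there.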

How the data were processed

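RNA sequencing covered 2 Pax5-/- samples and 1 wild-type sample, whose groups come from their titles. The deposited values are raw counts per gene, with featureCounts and mm10 named in the submitters' processing notes. No source used here gives the aligner, the annotation or the strand setting. The 3 per-sample files matched the series table in every gene. Per the file headers each gene also has a length in bases, used here for levels per kilobase. Symbols and coordinates came from RefSeq genes of GRCm38.p6 by Entrez number (25275 of 27179 matched), and exon overlaps from GENCODE M21.

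The counts were fitted with edgeR 4.0.16 under R 4.3.3: filterByExpr (minimum count 10), TMM scaling (factors 1.00 and 1.02 in Pax5-/- and 0.983 in the wild type), glmQLFit and glmQLFTest, and Benjamini-Hochberg adjustment over all 11783 genes tested, with a threshold of 0.05. There was 1 residual degree of freedom per gene, moderated with 3.15 prior degrees of freedom, at a biological coefficient of variation of 0.203. The SE is the size of the log2 fold change over the square root of F. Folds are ratios of pooled TMM-scaled CPM. Where a group had 1 to 3 counts a ratio has an exact Clopper-Pearson 95% interval, and where it had 0 counts the fold is a bound against 3 counts over the group, which in 1 library is 0.441 to 0.468 CPM. These intervals and floors cover counting error only, because without molecular identifiers several reads may stem from 1 molecule.

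Alternatives used limma 3.58.1 and DESeq2 1.42.0. The genes and lists were chosen with earlier results of these data known. Named from each list were up to 4 called genes with a mean of at least 1 CPM, ranked by the size of their change, or 2 genes by smallest p where no gene was called; Dll4, Hes5, Ptcra, Bcl11b and the other called lymphoid genes were named after their values were seen, as were the Deltex genes outside the 10.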

Additional observations from a re-analysis of the deposited data

How the results depend on the processing

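The calls of Notch1 and Dtx4 and their directions were the same in each of the 9 alternatives, and those of Dtx1 in the 8 that tested it. The alternatives were other library scaling, other filters, DESeq2, limma-voom, the likelihood ratio test, robust dispersion estimation and an assumed biological coefficient of variation of 0.4. The highest adjusted p, all from limma-voom, were 0.0122 for Notch1, 0.0139 for Dtx4 and 0.0164 for Dtx1. A tested Dtx1 had to differ, so its repeated calls add no support. Notch2 kept its call in 8 of 9. With the assumed coefficient 1206 genes were called in place of 2130, and the genes of the 10 that rose numbered 2 in place of 3. A filter of 1 CPM in 2 or more libraries removed Dtx1, which passes through the wild type alone, so that 0 of the 10 genes were then called lower. Of the other called pathway genes named, the assumed coefficient ended the calls of Maml3, Neurl1b, Nedd4, Mib2, Il2ra, Ccnd3, Nfkb2, Tcf7, Il7r and Runx3. Hes1, Nrarp, Rbpj and Maml1 were called in none of the 9. Leaving out either Pax5-/- sample leaves 1 sample a group with no test and no count of calls; Hes1 then stood at -0.13 or 0.70 on the log2 scale, and the genes with a fold of 2 or more, a count added after seeing the data, numbered 3 higher and 1 lower. The mean Pax5-/- ratio of downstream genes to receptors was 0.222 of the wild-type ratio, 0.200 to 0.243 with 1 sample left out, and 0.151 without Dtx4, also added after seeing the data. No paired analysis was possible because the groups share only 1 replicate number. A single wild-type library limits every comparison, and Notch3 and Notch4 were too shallow for the main filter; with no filter beyond 1 count in all, both were tested and neither was called.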

Other observations

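The 3 other Deltex genes missed the threshold, Dtx2 narrowly and with an unadjusted p of 0.00966. Dtx2 had 76.6 and 71.0 CPM in Pax5-/- cells, against 45.1 CPM in wild-type cells, a log2 fold change of 0.71 ± 0.16 (SE), with an adjusted p of 0.0518 in edgeR's quasi-likelihood test. Dtx3 had 7.41 and 5.73 CPM in Pax5-/- cells, against 7.49 CPM in wild-type cells and was not called (adjusted p = 0.721). Dtx3l, a Deltex relative induced by interferon, had 405 and 117 CPM in Pax5-/- samples 1 and 2, against 175 CPM in wild-type cells, on either side of it (adjusted p = 0.631). Irf7 and Bst2, also interferon-induced, split the same way: Irf7 had 2361 and 77 counts in Pax5-/- cells, against 280 in wild-type cells, and Bst2 had 5098 and 858 counts in Pax5-/- cells, against 1685 in wild-type cells. Among the 10 Notch genes, Hes1 alone lay on either side of the wild type, and there it was sample 2 that was higher.

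The genes nearest to Notch1 in pattern, by the Euclidean distance between edgeR's moderated log2 CPM (prior count of 2) over the 3 libraries after each gene's mean was removed, were Tspan2, Kif5a and Cacnb2 among 9469 candidates. Tspan2, a tetraspanin, had 234 and 276 CPM in Pax5-/- cells, against 28.7 CPM in wild-type cells, at a distance of 0.0233. Nearest to Dtx1 were Irf4, Bfsp2 and Lrrn3, at distances of 0.113 to 0.146. Irf4, a transcription factor of later B-cell stages, had 14.8 and 19.1 CPM in Pax5-/- cells, against 335 CPM in wild-type cells. Likeness over 3 libraries is a description of these libraries only.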
